A study of Mus musculus with 2 samples.

Results

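The genes described here carry out antigen presentation by the major histocompatibility complex (MHC), measured in whole liver of mice without the esterase homologue Iah1. The members are 10 genes chosen by symbol. B2m, Tap1, Tap2 and Tapbp serve MHC class I. H2-Aa, H2-Ab1, H2-Eb1, H2-DMa and Cd74 serve MHC class II, and Ciita is the transcriptional coactivator of the class II genes. Members were read from probe sets to which the platform annotation gives a single gene symbol, which left 9 of the 10 genes on 10 probe sets, out of 22180 genes on the array. Cd74 had no such probe set and is not analysed here.

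The study holds 2 Affymetrix arrays, one for the Iah1-WT genotype and one for the Iah1-KO genotype, in which Iah1 is missing from the whole body. Per the labels and the design text, the animals of both groups were male, began a high-fat diet at 6 weeks of age and ate it for 12 weeks. They went 4 hours without food before collection, and each array received 100 ng of RNA pooled from 3 mice. Strain and the form of the knockout allele are not given in the sources used here. With 1 pool per genotype there was no replicate error and no test, and higher or lower below refers to these arrays. Iah1 itself read 8.59 on the WT array and 3.90 on the KO array, as log2 RMA signal. The tissue label was checked on the signal of 8 hepatocyte markers, all past the intensity filter, with albumin (Alb) at 13.30 on WT and 13.28 on KO. Their differences lay between -0.17 and 0.04 (KO minus WT, log2), which does not bear on the tissue. The largest were -0.17 for Serpina1b, -0.13 for Cps1 and -0.07 for Hnf4a. Serpina1b was dim, at 5.31 on WT and 5.14 on KO.

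MHC class I molecules display peptides from the cytosol on nearly every nucleated cell. The transporter made of Tap1 and Tap2 carries peptides into the endoplasmic reticulum, where tapasin (Tapbp) loads them on a heavy chain paired with beta-2 microglobulin (B2m). MHC class II molecules are made mainly by macrophages, dendritic cells and B cells, and display peptides cut in endosomes. In liver, Kupffer cells and sinusoidal endothelium also carry them, while hepatocytes normally carry little.

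The class II structural genes read lower on the KO array, and the class I genes read close to equal on both. The 4 measured class II genes all lay below 0, at -0.79 for H2-Ab1, -0.54 for H2-DMa, -0.35 for H2-Aa and -0.17 for H2-Eb1 (KO minus WT, log2), with a median of -0.45. The 4 class I genes had a median of 0.08 and lay between -0.12 and 0.17. Ciita differed by 0.03. The median over the 11090 genes past the intensity filter was -0.02. All 9 measured members passed that filter, which requires the higher array to reach 4.68 (log2), the median of genes. H2-DMa passed it through the WT array only, and it enters the class II median. Without a filter that median stayed at -0.45, as it had to, because all 4 class II genes had passed. Dropping the filter therefore does not check the entry of H2-DMa. The difference between the class II and class I genes was not tested, and members are not replicates of a genotype.

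At a difference of 1.5-fold (0.58 log2) or more, 1 of the 9 members was lower on the KO array, where 2.45% of all genes past the filter were. None was higher, against 1.47% of all genes. At 1.2-fold (0.26 log2), 3 of 9 were lower and none higher, against 14.4% and 9.3% of all genes. Those 3 were H2-Ab1, H2-DMa and H2-Aa. By any amount 5 of 9 were lower and 4 higher, near the 55.7% and 44.3% of all genes.

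**Figure D1:**
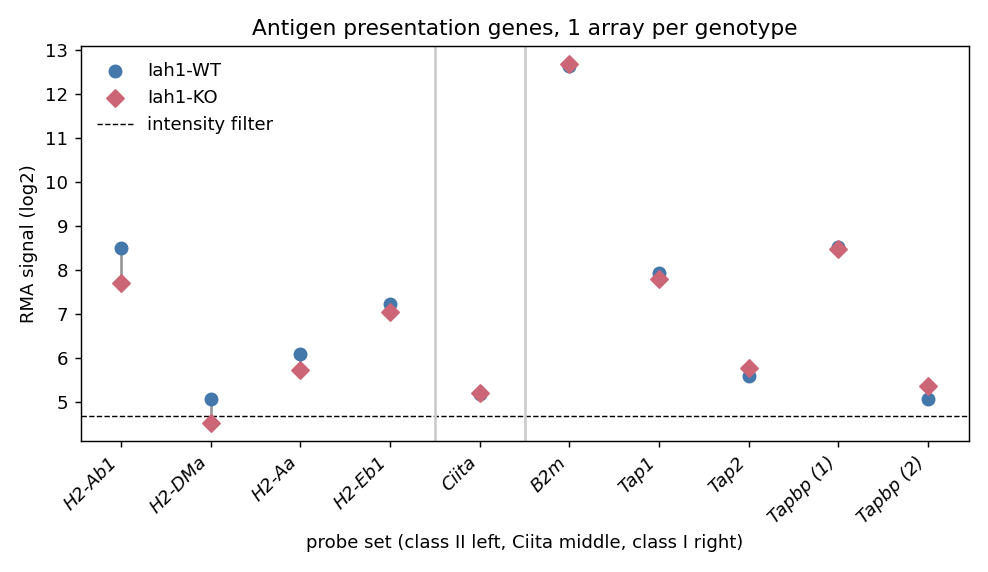
RMA signal (log2, vertical axis) of each member probe set on the Iah1-WT array (circles) and the Iah1-KO array (diamonds), joined by a line, with the intensity filter of 4.68 dashed. The class II probe sets on the left read lower on the KO array, by 0.79 for H2-Ab1, while B2m on the right reads 12.64 and 12.68.

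H2-Ab1 encodes the beta chain of the class II molecule I-A. It read 8.49 on the WT array and 7.70 on the KO array, 1.73-fold lower. This was the 106th lowest difference of 11090 genes, and the 10th lowest of the 2773 genes in the brightest of 4 equal groups by mean signal. In that group the standard deviation of the differences was 0.16 (log2), and 18 genes were lower and 2 higher at 1.5-fold. The arrays carry only 1 kind of error, the extent to which probe sets of a gene disagree. For a single probe set's difference it had a standard deviation of 0.27 (log2) over 604 genes, and of 0.16 over the 71 such genes of the brightest group. The H2-Ab1 difference is larger than both, but that error leaves out mice, labelling and hybridisation.

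H2-Aa, which encodes the alpha chain of the same molecule, read 6.08 on the WT array and 5.73 on the KO array, 1.28-fold lower. It lay in the second-dimmest of the 4 signal groups, where a single probe set's difference had an error of 0.27 (log2, standard deviation). Its difference is therefore little larger than that error. Both chains were lower on the KO array, by unequal amounts.

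H2-Eb1 encodes the beta chain of the other class II molecule, I-E. It read 7.22 on the WT array and 7.05 on the KO array, a difference of -0.17 (log2). That lies within the probe set error of 0.23 for its signal group. H2-Ea, the gene of the matching alpha chain, read 3.38 and 3.42, below the filter on both arrays.

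H2-DMa encodes a chain of H2-M, which exchanges the invariant chain fragment for peptide in the endosome. It read 5.07 on the WT array and 4.53 on the KO array. The KO value lay below the filter, so the gene was at least 1.31-fold lower against the filter, a bound on RMA values that is no detection limit. Its difference of -0.54 (log2) compares with a probe set error of 0.31 in the dimmest signal group, to which it belongs. Its partner genes H2-DMb1 (4.09 and 4.16) and H2-DMb2 (3.53 and 3.48) were below the filter on both arrays.

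Ciita is recruited to class II promoters by factors bound to a pair of conserved elements, the X box and the Y box. It read 5.19 on the WT array and 5.21 on the KO array. The coactivator's signal thus differed by 0.03 (log2), less than the probe set error of 0.31 for genes of this signal. A probe set summarised over the transcript does not separate the promoters from which Ciita is started in different cell types.

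RefSeq promoter windows (GRCm38.p6, from 250 bases before to 50 bases after the gene's start) were found for 6 of the 10 members, on 7 windows, and these were B2m, Tap1, Tapbp, H2-Aa, H2-Eb1 and H2-DMa. They are shown for the class II promoters because the X and Y boxes are the shared feature through which Ciita acts. The capitals mark the core of the X1 element, searched as CTNGNAAC, and the Y box core CCAAT, which on this strand reads ATTGG. H2-DMb1, a class II gene outside the members, is given for comparison.
H2-Eb1: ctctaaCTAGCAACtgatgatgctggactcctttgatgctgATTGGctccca
H2-Aa: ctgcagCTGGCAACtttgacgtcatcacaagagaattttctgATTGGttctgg
H2-DMb1: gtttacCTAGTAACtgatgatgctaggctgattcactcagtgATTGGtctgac
The H2-Eb1 stretch is chr17:34305767-34305818 on the plus strand, from 100 to 49 bases before the start. The H2-Aa stretch is chr17:34287861-34287913 on the minus strand, from 90 to 38 bases before it. The H2-DMb1 stretch is chr17:34153088-34153140 on the plus strand, from 103 to 51 bases before it. The gap between the cores was 27 bases in H2-Eb1 and 28 bases in both others. An X1 core followed on the same strand by ATTGG after 10 to 40 bases, searched on both strands, was in 122 of 32851 windows (0.371%). Single cores are frequent, at 37.4% of windows for CCAAT and 13.2% for CTNGNAAC. The X1 letters and the gap were set after these sequences had been read, so the share describes the pattern. Neither H2-DMa window held the pair, which says only that these letters are not in them.

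B2m, the light chain of every class I molecule, read 12.64 on the WT array and 12.68 on the KO array. At a difference of 0.04 (log2) it was the member with the smallest difference after Ciita. Its promoter window held a core of the interferon-stimulated response element, searched on both strands as GAAA, any 2 bases and GAAA, and present in 3.44% of windows. It is shown because B2m is a textbook interferon target, with the core in capitals.
B2m: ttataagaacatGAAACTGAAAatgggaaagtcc
This stretch is chr2:122147536-122147569 on the plus strand, from 151 to 118 bases before the start. No other member window held that core.

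Tap1 read 7.92 on the WT array and 7.80 on the KO array, a difference of -0.12 (log2), within the probe set error of 0.16 in its signal group. Tap2 read 5.59 and 5.76, a difference of 0.17 against an error of 0.27. Both subunits of the peptide transporter therefore differed within that error, with opposite signs. Tap1 is divergently transcribed with the immunoproteasome gene Psmb9, and their promoter windows share 275 bases. Psmb9 read 6.66 and 6.75, a difference of 0.09.

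Tapbp had 2 probe sets, and they disagreed. The brighter read 8.52 on the WT array and 8.48 on the KO array, a difference of -0.04 (log2), and the dimmer read 5.07 and 5.36, a difference of 0.29. Their mean of 0.13 is within the error of 0.19 for a mean of 2 probe sets, and its sign rests on the dimmer one. Taking only a gene's brightest probe set, Tapbp lay at -0.04 and the median of the 4 class I genes at -0.00 (-0.0009).

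**Figure D2:**
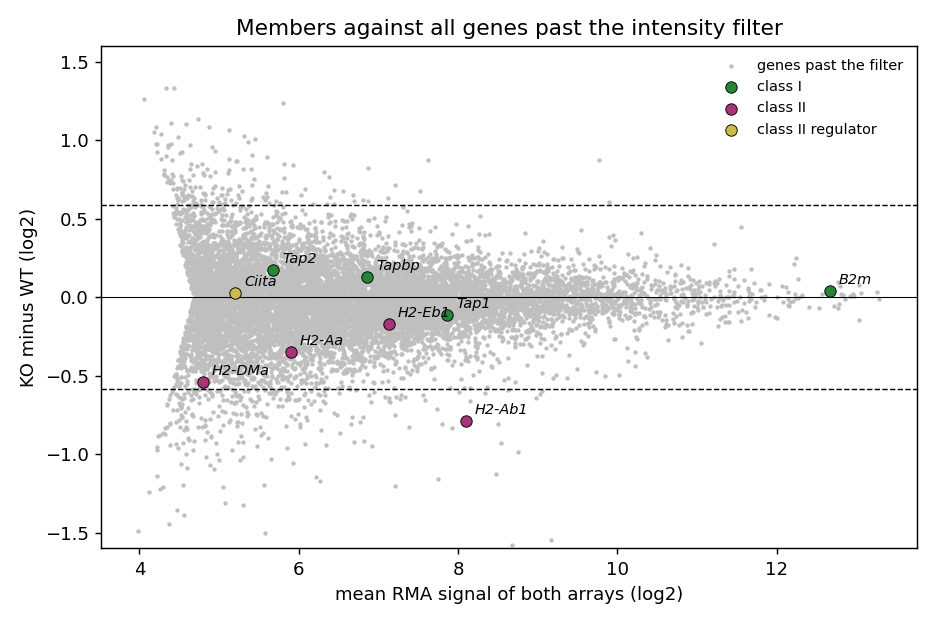
Difference between the arrays (KO minus WT, log2, vertical axis) against the mean RMA signal (log2, horizontal axis) for the 11090 genes past the filter (grey, 3 of them beyond the axis limits of 1.6 either way) and for the members (coloured by role), with 1.5-fold dashed. H2-Ab1 lies below the dashed line at -0.79, outside most genes of similar signal, and H2-DMa lies at -0.54 among dim genes, whose differences spread more.

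Most class II genes of the mouse lie next to each other on chromosome 17, with the class I transporter and immunoproteasome genes between them. In the RefSeq order of protein-coding genes (GRCm38.p6) the stretch from H2-DMa to H2-Eb1 holds 11 genes, and 8 of them passed the filter. H2-DMa is the first gene of the stretch, and H2-Ab1, H2-Aa and H2-Eb1 are the last, in that order. H2-Eb1, the last gene, differed by only -0.17 (log2), less than Psmb8 inside the stretch. Psmb9, Tap1, Psmb8 and Tap2, which lie between H2-DMa and H2-Ab1, differed by 0.09, -0.12, -0.31 and 0.17 (log2). H2-Ob, a chain of the H2-M inhibitor H2-O that lies beside H2-Ab1, read 4.44 on the WT array and 4.48 on the KO array, below the filter on both.

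**Figure D3:**
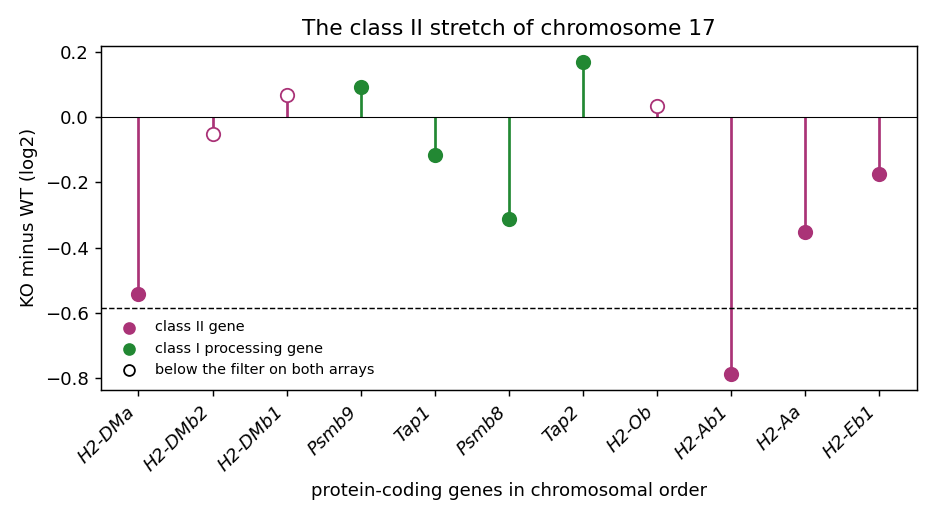
Difference between the arrays (KO minus WT, log2, vertical axis) of the 11 protein-coding genes from H2-DMa to H2-Eb1 in chromosomal order (horizontal axis, not to scale), class II genes in purple and class I processing genes in green, open where the gene was below the filter on both arrays, with 1.5-fold dashed. The lowest values are -0.79 for H2-Ab1, the 9th gene, and -0.54 for H2-DMa, the first. The class I genes between them lie from -0.31 to 0.17, and the last gene, H2-Eb1, lies at -0.17.

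The wider class II pathway was measured through 21 further genes, and 14 passed the filter. None of the 14 reached 1.5-fold in either direction, where 2.45% of all genes past the filter were lower and 1.47% higher. At 1.2-fold 2 were lower and 1 higher, near the 14.4% and 9.3% of all genes. The median of the 14 was -0.13 (log2). Among 6 endosomal enzymes the lower ones were legumain (Lgmn), an asparaginyl endopeptidase, at 8.33 on the WT array and 7.92 on the KO array, and cathepsin S (Ctss), which trims the invariant chain, at 8.58 and 8.23. The thiol reductase gene Ifi30 differed by 0.10, and the 6 enzymes had a median of -0.09. The 7 genes of factors that bind the class II promoter (Rfx5, Rfxap, Rfxank, Nfya, Nfyb, Nfyc and Creb1) lay between -0.22 and 0.34, with Rfxap highest, at 6.19 and 6.53. Both groupings were made after the values had been seen. The 7 genes below the filter were chains or relatives of class II molecules (H2-DMb1, H2-DMb2, H2-Oa, H2-Ob, H2-Eb2 and H2-Ea) and the ubiquitin ligase gene Marchf1.

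The wider class I pathway, 19 measured genes of 26 listed, had a median of -0.02 (log2), with 10 below 0 and 9 above. At 1.5-fold 1 gene was lower and none higher, against 2.45% and 1.47% of all genes past the filter. The lower gene was the heavy chain relative H2-T24, at 5.70 on the WT array and 4.89 on the KO array, 1.75-fold lower. It belongs to the dimmest signal group, where the probe set error was 0.31 (log2). In that group 152 of 2773 genes were lower at 1.5-fold. The immunoproteasome subunit gene Psmb8 was at 7.46 and 7.14, a difference of -0.31. H2-T10 was at 4.39 and 4.68, with the WT value below the filter and the KO value just past it. Nlrc5, the class I counterpart of Ciita, was at 5.85 and 5.66, a difference of -0.19. The classical heavy chain gene H2-K1, chosen after its values were seen, was at 10.25 and 10.20. Heavy chain genes are close copies of each other, so their probe sets can share signal and single genes among them are uncertain.

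Of the other proteins that pair with beta-2 microglobulin, the gene of Mr1, which shows vitamin B metabolites to T cells, was at 6.53 on the WT array and 6.20 on the KO array. Cd1d1, which presents lipids to natural killer T cells, differed by 0.12 (log2) and the iron regulator Hfe by 0.07. None of the 4 measured genes reached 1.5-fold, and their median was 0.03. Over all genes past the filter, 2.45% were lower and 1.47% higher at 1.5-fold.

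Interferon gamma is the main inducer of Ciita and of both pathways. Of 16 measured genes of its signalling list, 13 passed the filter, with a median of -0.07 (log2). None of them reached 1.5-fold, where 2.45% of all genes past the filter were lower and 1.47% higher. The lowest were the receptor gene Ifngr1, at 7.54 on the WT array and 7.26 on the KO array, the kinase gene Jak1 at -0.19 and the receptor gene Ifngr2 at -0.16. The cytokine gene Ifng read 3.07 and 2.85, below the filter on both arrays.

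Costimulatory and adhesion molecules accompany class II on antigen-presenting cells. Of 10 measured genes 5 passed the filter, with a median of -0.39 (log2). At 1.5-fold 2 were lower and none higher, against 2.45% and 1.47% of all genes past the filter. Cd86 and Cd274 passed through the WT array only, so the filter partly sets the signs in this list. Over all 10 measured genes the median was -0.24. Cd86, a ligand of the costimulatory T cell receptor CD28, read 5.73 on the WT array and 4.42 on the KO array. Its KO value was below the filter, so it was at least 2.08-fold lower against the filter. Icam1, an adhesion molecule, read 6.36 and 5.62. Cd274, which encodes the inhibitory ligand PD-L1, was at least 1.17-fold lower against the filter (4.91 and 4.52), and Cd83 differed by -0.19.

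Markers of macrophages and sinusoidal endothelium were lower on the same array as the class II genes, while most markers of dendritic cells and all of B cells were below the filter. All 16 Kupffer cell and macrophage markers passed the filter and lay below 0, with a median of -0.47 (log2) and 4 lower at 1.5-fold. Those were C1qb at -0.81, the Fc receptor gene Fcgr1 at -0.73, Vsig4 at -0.71 and Adgre1 at -0.67. Over all genes past the filter, 55.7% lay below 0 and 2.45% were lower at 1.5-fold. The summed linear signal of the 16 macrophage markers was 3189 on the WT array and 2254 on the KO array, 1.41-fold lower. For the 4 class II members it was 609 and 416, 1.46-fold lower, and without H2-Ab1 it was 250.1 and 208.1, so most of that sum's difference was H2-Ab1. All 12 sinusoidal endothelial markers also lay below 0, with a median of -0.51. At 1.5-fold 5 of them were lower, against 2.45% of all genes past the filter. Lyve1 was lowest at -0.83, followed by Tek at -0.66, Oit3 at -0.62 and Cdh5 at -0.61. Fewer cells of a type and less RNA per cell cannot be told apart in whole tissue, and the part of these cells in the class II values was not tested.

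Of 11 measured dendritic cell markers, Cd209a alone was past the filter on both arrays, at 5.79 on WT and 6.08 on KO. Cd24a (4.56 and 4.99) and Ccr7 (4.30 and 4.73) passed through the KO array only and Zbtb46 (4.98 and 4.63) through the WT array only, so the filter partly sets the signs of these genes. The 4 dendritic cell markers that passed had a median of 0.36 (KO minus WT, log2), and all 11 measured had a median of 0.19. The defining genes Itgax, Flt3 and Xcr1 were below the filter on both arrays. None of 8 B cell and plasma cell markers and none of 11 T and NK cell markers passed the filter on either array, and their highest values were 4.35 and 4.45. Stellate cell markers went both ways over the 7 that passed the filter, with 5 below 0, 2 above and a median of -0.17 (log2). Des, the intermediate filament gene desmin, was the 1 past 1.5-fold, where 1.47% of all genes past the filter were higher. It read 3.75 on the WT array and 4.68 on the KO array, so it passed only through the KO array. Lrat was at -0.52, Ngfr at -0.39 and Pdgfrb at -0.29. The 2 cholangiocyte markers that passed it, Sox9 and Krt23, both differed by -0.17.

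**Figure D4:**
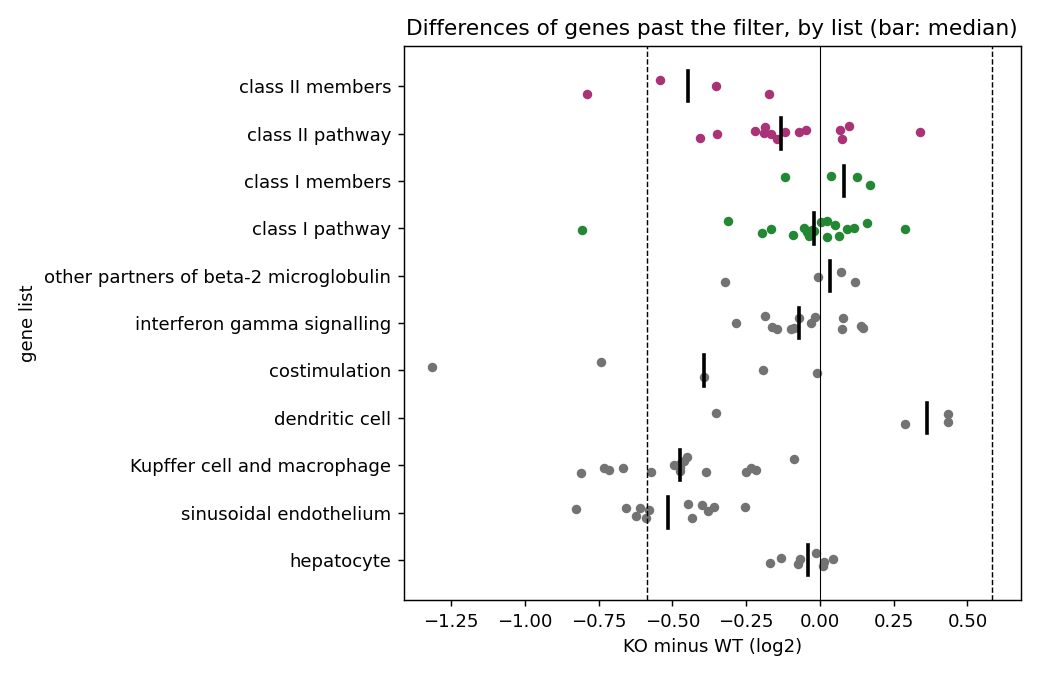
Difference between the arrays (KO minus WT, log2, horizontal axis) of the genes past the filter in 11 lists (rows), each point a gene and each black bar the list's median, with 1.5-fold dashed. The bars of the class II members (-0.45), costimulation (-0.39), the macrophage markers (-0.47) and the endothelial markers (-0.51) lie left of 0. Those of the class I members (0.08) and hepatocyte markers (-0.04) lie near it, and that of the 4 dendritic cell markers (0.36) lies right of it.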

How the data were processed

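Liver RNA was hybridised to 2 Affymetrix arrays, 1 per genotype, each a pool of 3 mice. The deposited values are log2 signals, 1 per probe set, and per the submitters' processing notes they were made with RMA and Affymetrix Expression Console 1.3.0. RMA includes a step that equalises the arrays' distributions, but the deposited medians still differed slightly, at 4.08 for WT and 4.10 for KO. It can also compress differences of dim probe sets. Even so, the differences of the dimmest signal group spread most here, with a standard deviation of 0.36 (log2) against 0.16 in the brightest. The sources used here give no genome build for the array values, and GRCm38.p6 above belongs to the promoter windows and the gene order. The number of arrays limits the precision. Of 41345 probe sets, 23521 had 1 gene symbol in the platform annotation, 1814 had several and 16010 had none. Gene values were means over the probe sets with 1 symbol (Python 3.11.15, pandas 2.3.3).

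No test was possible. Genes were counted by size beside the share of all genes past the filter. The 5 pathway and 8 cell type lists, the members and the counting rule were chosen with earlier results of these data known. From each list, genes past 1.5-fold or otherwise with the largest differences are named, up to 4, and a few others, such as Alb and H2-K1, were chosen after their values were seen. With 2 arrays, no likeness of patterns was computed. The gene order on chromosome 17 was looked at after the values had been seen. The counting code was run on simulated differences with known changes, whose spread was set smaller than that of the arrays. It therefore checks the code and gives no error rate for the counts reported here.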

Additional observations from a re-analysis of the deposited data

How the results depend on the processing

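Alternatives were the brightest probe set, no filter, a filter at the 75th percentile, a repeated quantile normalization, centring on the median difference, a loess fit (span 0.4), and folds of 1.2 and 2. H2-Ab1 lay between -0.79 and -0.76 (log2) over 6 of them, and H2-Eb1 between -0.17 and -0.13. Each has 1 probe set, so the brightest-probe-set choice and the 2 filter changes cannot alter these differences. Only the other settings could move them. The median of the class II members that passed each filter lay between -0.48 and -0.42. Under the stricter filter only H2-Ab1 and H2-Eb1 were left among them, so the -0.48 describes those 2 genes. Over all genes, 576 were lower and 572 higher without a filter, 61 and 18 with the stricter filter, 1595 and 1031 at 1.2-fold, and 34 and 15 at 2-fold, against 272 and 163 at 1.5-fold. Of the 9 members, 3 were lower at 1.2-fold, against 14.4% of all genes past the filter. At 2-fold 0 were lower, where 34 of the 11090 genes past the filter were. Without a filter 1 further class II pathway gene was higher at 1.5-fold, H2-Oa (3.50 on the WT array and 4.26 on the KO array). With the stricter filter the lower counts of the class I pathway and of costimulation were both 0. At 1.2-fold 2 of 14 class II pathway genes were lower and 1 higher, and 2 of 19 class I pathway genes were lower and 1 higher. Among the other partners of B2m 1 of 4 was lower, and in interferon gamma signalling 1 of 13. Over all genes past the filter 14.4% were lower and 9.3% higher at 1.2-fold. At 2-fold the lower count was 0 of 19 for the class I pathway and 1 of 5 for costimulation, against 34 of the 11090 genes past the filter. These changes follow from which genes each filter or fold admits. No paired analysis was possible because each genotype has 1 array. Dim signal limits H2-DMa and Ciita, and no mouse-to-mouse spread can be recovered from pools.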
